A study of Mus musculus with 19 samples.

Results

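The sperm small RNA libraries held 26338 distinct sequences that resembled PIWI-interacting RNAs (piRNAs) in length and first base and matched no annotated small RNA. Members were chosen by sequence and by read number. A sequence was a member if it was 25 to 31 nt long, began with T (uridine in the RNA), did not end in CCA, had 10 or more reads in at least 4 of the 19 libraries, and matched no GENCODE miRNA, rRNA, mitochondrial rRNA or tRNA, snoRNA, snRNA, scaRNA, ribozyme or miscellaneous RNA transcript in the sense direction when 1 mismatch was allowed. The members were 16.6% of the 158815 sequences of any length that reached this number of reads. Of 42657 unmatched sequences of 25 to 31 nt that did not end in CCA, 61.7% began with T, 15.0% with A, 14.5% with G and 8.84% with C. These counts describe the selection and were not tested. At the limit of the selection, 2338 members had exactly 10 reads as their 4th highest count, and 2172 sequences that met every other condition had 9 there. The first members inside the limit had highest counts of 25 and 28 reads in any library, and the first sequences outside it had 20 and 18.

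Wild-type male mice were 8 weeks old when oral gavage with dicyclohexyl phthalate (DCHP), a plasticizer, began, beside a control group, and sperm were taken when the 4 weeks of gavage had ended. RNA of the small size range was sequenced by traditional RNA-seq (5 control and 5 DCHP libraries) and by PANDORA-seq (4 control and 5 DCHP libraries), in which RNA was first treated with T4 polynucleotide kinase, which repairs fragment ends so that adapters can be ligated, and with AlkB, a demethylase that removes methyl groups which stop reverse transcription. The labels name DCHP gavage for all 19 libraries, so the titles alone gave the exposure group. Total reads per library ranged from 21588335 to 56506344.

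piRNAs are small RNAs that PIWI proteins bind in germ cells. In the testis of adult mice, most arise in meiotic cells from long noncoding precursor transcripts that are cut into pieces beginning with uridine, and their 3′ ends are trimmed and then 2′-O-methylated. An A at base 10 marks the partner strand in ping-pong amplification, in which a PIWI protein guided by one piRNA cuts a complementary transcript. Fragments of tRNAs, rRNAs and mRNAs can have the same length and first base, so these features alone do not define a piRNA.

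The sequences below were each the most abundant member of at most 30 nt on its transcript. The transcripts were picked after their values were seen, from those with many members or many member reads and, for Smcp, as a marker of sperm with few members, to let kinds of member be compared. Capitals mark the first base and base 10. Each matched its gene exactly in the sense direction.
Lars2: TtttgatccTtcgatgtcggctcttcctat
Gm5878: TagaagacgAgtttggactgagcgaaatt
Gm21269: TatgtgaatTtcaactgttggctccacag
1700001L05Rik: TtctagtagActggctcttgatggtttg
4933440M02Rik: TaaaagttcTagactgtgttcctcctgtg
Smcp: TtctgatagCcatggactcactagactgc
Neat1: TctgtggtcAgtagcgttagcctgtg
Akr1b7: TtccttcgtCtctctaaaatcaacctggat

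Positions were on GRCm38. The Lars2 sequence lay in the 3′ UTR at chr9:123462006-123462035 on the plus strand and was found again, also without mismatch, in the noncoding AA474408 at chr7:110059748-110059777 on the minus strand. The long noncoding transcripts held the Gm5878 sequence at chr6:85112879-85112907 on the minus strand, the Gm21269 sequence at chr7:73824992-73825020 on the plus strand, the 1700001L05Rik sequence at chr15:83355607-83355634 on the minus strand and the 4933440M02Rik sequence at chr7:125330710-125330738 on the minus strand. The Smcp sequence lay in the 5′ UTR at chr3:92588953-92588981 on the minus strand, the Neat1 sequence in the noncoding transcript at chr19:5834058-5834083 on the minus strand, and the Akr1b7 sequence in the 3′ UTR at chr6:34422924-34422953 on the plus strand.

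Of the 19 libraries, 5 control libraries stood apart in the 3′ ends of their sequences. An abundant 30-nt member of the largest family of members, described below, also occurred as a member with the change G29A, counted from the 5′ end, so that it ended in AC in place of GC. Per 1000 reads of the G form, the A form had 34.5 and 21.9 reads in PANDORA-seq control libraries 1 and 4, and 2.91 and 2.03 in control libraries 2 and 3. The 5 PANDORA-seq DCHP libraries had 1.21, 2.23, 2.65, 2.19 and 1.33. In traditional RNA-seq the A form had 20.9, 12.3 and 26.8 reads per 1000 in control libraries 1, 2 and 4, and 2.06 and 1.44 in control libraries 3 and 5. The 5 traditional DCHP libraries had 1.36, 2.12, 1.82, 2.09 and 1.52. Summed over the 94 pairs of members that differ by G or A before the last base, this pair included, the same libraries were highest, with 8.04 to 11.5 reads of the A form per 1000 against 2.26 to 5.55 in the other PANDORA-seq libraries, and with 6.79 to 9.82 against 1.69 to 2.48 in the other traditional libraries. The 5 libraries were picked by the ratio of the A form to the G form in this pair. That this kind of change separated them was therefore set by the choice and is no test. Among 21 kinds of base change near the 3′ end, no other kind separated the 5 libraries in both methods. These libraries were singled out after their values had been seen, and no cause was tested.

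The members were not of a single kind. Linked by a shared run of 16 bases, they fell into 6362 families, 2790 of them with a single member, and a few families held most reads. The largest family had 3716 members. In reads per 1000000 total reads (RPM), it held 90.9% of the level of all members in traditional RNA-seq and 10.4% in PANDORA-seq. With runs of 14, 18 or 20 bases it had 3731, 3389 or 2093 members and 90.9%, 90.5% or 87.0% of the member RPM in traditional RNA-seq. Most of its members were low in abundance, and its 10 most abundant members held 83.0% of its RPM in traditional RNA-seq and 83.7% in PANDORA-seq. Of the family, 533 members differed by 1 substitution and 862 by 2 substitutions from the most abundant member of their own length. Nuclear tRNAs were not among the transcripts used here, and whether this or another abundant family includes their reads was not tested. Over all members, 74.6% shared their first 20 bases with another member, so members are not independent of each other.

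The family of the Lars2 sequence had 854 members, 836 of them on a transcript. Lars2 encodes the mitochondrial leucyl-tRNA synthetase, and its members, 913 with those of smaller families, lay between positions 123461802 and 123462168 of chromosome 9. AA474408 carried 608 members, only 2 of them on no other gene. The Lars2 sequence itself had 3982, 3674, 6393 and 7618 RPM in the PANDORA-seq control libraries and 4393, 4511, 3307, 3877 and 2557 RPM in the DCHP libraries. In the traditional control libraries it had 305, 46.9, 180, 189 and 94.5 RPM, and in the traditional DCHP libraries 49.9, 88.1, 51.4, 58.7 and 16.7 RPM. It was higher in every PANDORA-seq library than in any traditional library. The family held 38.4% of all member RPM in PANDORA-seq libraries and 0.506% in traditional libraries. Whether it includes reads of the 28S rRNA, which was not among the transcripts used here, was not tested.

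The most abundant member in PANDORA-seq was a 25-nt sequence on no transcript used here. It had 7705, 10964, 4767 and 5810 RPM in the PANDORA-seq control libraries and 4472, 3462, 7178, 4501 and 2573 RPM in the DCHP libraries, so the groups overlapped. In the 10 traditional libraries it ranged from 34.6 to 1194 RPM, the highest of them in DCHP library 2. Its family of 122 members held 13.6% of member RPM in PANDORA-seq libraries and 0.147% in traditional libraries. Besides the largest family, 40 families reached 100 RPM in the mean of either method, and together these 40 families had 2898 members. They held 82.9% of member RPM in PANDORA-seq libraries and 2.20% in traditional libraries.

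The remaining 6321 families had 19724 members, 74.9% of all, with low levels each. Since most members reached the minimum of reads through the traditional libraries, their levels in the 2 methods are given as a description. In traditional RNA-seq their summed level ranged from 8779 to 18483 RPM in the control libraries and from 15544 to 22785 RPM in the DCHP libraries. In PANDORA-seq it ranged from 3184 to 3988 RPM in the control and from 2921 to 3558 RPM in the DCHP libraries. Their lengths peaked at 28 nt (22.0%) and 29 nt (23.8%) and dropped to 4.38% at 31 nt. A was at base 10 in 23.8% of them, G in 28.1%, T in 29.8% and C in 18.3%. In the largest family, by contrast, A was at base 10 in 2.96% of members and G in 51.9%.

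Most members reached the minimum of reads in only one of the methods, although PANDORA-seq libraries held reads of 21016 members and traditional libraries of 26106. Of all members, 80.8% reached 10 reads in 4 libraries of traditional RNA-seq and not of PANDORA-seq, 12.7% did so in PANDORA-seq and not in traditional RNA-seq, and 5.82% in both. Of the whole set of 158815 sequences, the shares were 47.3%, 31.6% and 18.3%. The number of members with 10 or more reads ranged from 3295 to 5157 in the PANDORA-seq and from 11161 to 21481 in the traditional libraries.

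Because the minimum of reads helped to choose the members, the methods and exposures were compared over all unmatched reads of 25 to 31 nt that began with T and did not end in CCA, here called T-first reads, with no minimum. Each of 5 values was compared in 4 ways with two-sided exact permutation tests over libraries, and p was adjusted by the Benjamini-Hochberg method over the 20 comparisons. T-first reads were a smaller share of all reads in PANDORA-seq than in traditional RNA-seq. In control libraries the share was 7.02% ± 0.660 (SD, n = 4) by PANDORA-seq and 26.9% ± 4.24 (SD, n = 5) by traditional RNA-seq. In DCHP libraries it was 5.77% ± 0.424 (SD, n = 5) by PANDORA-seq and 23.8% ± 2.91 (SD, n = 5) by traditional RNA-seq. The exact p was 0.0159 in control and 0.00794 in DCHP libraries, the smallest that these group sizes allow, and the adjusted p was 0.0397 in both. The groups did not overlap in either exposure.

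The same held for the composition of these reads. T was the first base of 46.8% ± 4.14 (SD, n = 4) of all unmatched reads of 25 to 31 nt in PANDORA-seq control libraries and of 63.5% ± 2.92 (SD, n = 5) in traditional control libraries. A was at base 10 of 19.04% ± 5.47 (SD, n = 4) of T-first reads in PANDORA-seq and of 3.54% ± 1.07 (SD, n = 5) in traditional control libraries. The 25-nt member described above has A at base 10, and it alone was 40.2% to 66.1% of the T-first reads with A at base 10 in PANDORA-seq control and 39.3% to 56.6% in PANDORA-seq DCHP libraries. Without it, an alternative added after seeing the data, A at base 10 had means of 9.33% in PANDORA-seq and 3.48% in traditional control libraries, and of 8.74% and 4.65% in DCHP libraries (adjusted exact permutation p = 0.0397 in both). The mean length of T-first reads was 28.3 ± 0.277 nt (SD, n = 4) against 28.98 ± 0.0837 nt (SD, n = 5). In DCHP libraries the corresponding means were 42.0% and 59.2% for T as first base, 15.7% and 4.78% for A at base 10, and 28.41 and 28.97 nt for length. All 6 of these comparisons between methods had an adjusted exact permutation p of 0.0397. T-first reads per miRNA read did not pass the test. Control libraries had 5.49 ± 0.498 (SD, n = 4) by PANDORA-seq and 4.32 ± 2.24 (SD, n = 5) by traditional RNA-seq (adjusted exact permutation p = 0.392), and DCHP libraries had 4.92 and 3.65 (adjusted exact permutation p = 0.101). Without traditional DCHP library 1 the adjusted exact permutation p was 0.0353 in DCHP libraries. Few PANDORA-seq hairpin reads were on hairpins whose reads were mostly 20 to 24 nt, the length of miRNAs. These were 18262 of 492830 hairpin reads on average in control and 23032 of 454424 in DCHP libraries. With these hairpins alone as the miRNA total, T-first reads per miRNA read were higher in PANDORA-seq by 153.7 in control and 118.3 in DCHP libraries (adjusted exact permutation p = 0.0317 in both). DCHP libraries with the same number in both methods deviated together from their group means, and with these as 5 pairs the exact sign-flip p was 0.0625, the smallest that 5 pairs allow, for each of the 4 values that had passed.

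Most of these differences between methods rested on the largest family. It made up 73.7% to 89.6% of T-first reads in the traditional libraries and 3.22% to 16.6% in the PANDORA-seq libraries. Without reads that share 16 bases in a row with that family, a choice made after seeing the data, T-first reads were 5.98% to 7.42% of all reads in PANDORA-seq control and 2.61% to 4.64% in traditional control libraries. In DCHP libraries they were 4.46% to 5.83% and 3.45% to 5.14%. The difference thus turned its direction in both exposures, with PANDORA-seq higher by 3.03 percentage points in control (adjusted exact permutation p = 0.0529) and by 1.13 in DCHP libraries (adjusted exact permutation p = 0.0595). T-first reads per miRNA read, on all hairpins, were then 4.35 to 5.60 in PANDORA-seq control and 0.215 to 0.827 in traditional control libraries, and 3.79 to 4.88 against 0.423 to 0.796 in DCHP libraries. These groups did not overlap, with differences of 4.59 and 3.83 (adjusted exact permutation p = 0.0529 in both). T as first base turned in control libraries, to a difference of 2.75 percentage points, and stayed lower by PANDORA-seq in DCHP libraries, at -7.41 (adjusted exact permutation p = 0.0529). A at base 10 turned as well. Without the family it was found in 15.97% to 27.7% of T-first reads in PANDORA-seq control and 23.0% to 27.2% in traditional control libraries, and in 14.3% to 23.5% and 25.1% to 27.1% in DCHP libraries. Without both this family and the 25-nt member, it was found in 8.15% to 11.5% of T-first reads in PANDORA-seq control and 22.3% to 27.1% in traditional control libraries, and in 8.17% to 11.7% and 24.2% to 27.1% in DCHP libraries. The groups then did not overlap (adjusted exact permutation p = 0.0397 in both exposures). Without the largest family alone, mean length turned as well, and the groups overlapped. It was 28.22 nt in PANDORA-seq and 28.02 nt in traditional control libraries, and 28.28 and 27.97 nt in DCHP libraries.

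Without the largest family, the lengths of T-first sequences still differed in shape between methods. Each distinct sequence was counted once, whatever its read number. Forms of an abundant sequence that differ by a base or in length each counted, so abundance can still carry weight. Of T-first sequences in traditional control libraries, 20.4% ± 0.915 (SD, n = 5) had 29 nt, 18.98% ± 0.605 (SD, n = 5) had 28 nt and 7.37% ± 0.622 (SD, n = 5) had 31 nt. In PANDORA-seq control libraries the shares were 15.3% ± 0.224, 14.7% ± 0.0780 and 16.3% ± 0.734 (SD, n = 4), and the share rose with each length from 11.8% at 25 nt. Unmatched sequences with another first base had no such peak in traditional control libraries, with 15.2% at 29 nt, 14.6% at 28 nt and 13.1% at 31 nt. A was at base 10 of 24.2% ± 0.672 (SD, n = 5) of distinct T-first sequences in traditional and of 17.995% ± 1.099 (SD, n = 4) in PANDORA-seq control libraries. Of distinct sequences with another first base it was at base 10 in 23.1% and 19.7%. These shares are descriptions.

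DCHP exposure changed none of the 5 values past the adjusted threshold in either method. In PANDORA-seq, T-first reads were 6.68%, 6.27%, 7.67% and 7.48% of all reads in the control libraries and 5.53%, 5.80%, 5.71%, 6.46% and 5.34% in the DCHP libraries (exact permutation p = 0.0317, adjusted p = 0.0635). Only DCHP library 4 was above the lowest control library. Without the largest family the groups did not overlap, and the difference was -1.34 percentage points (adjusted exact permutation p = 0.0529). In traditional RNA-seq the shares were 25.1%, 26.5%, 22.4%, 33.9% and 26.5% in control and 26.9%, 22.6%, 23.9%, 25.9% and 19.5% in DCHP libraries (adjusted exact permutation p = 0.317). T was the first base of 59.2% ± 1.36 (SD, n = 5) of unmatched reads in DCHP and of 63.5% ± 2.92 (SD, n = 5) in control libraries of traditional RNA-seq (adjusted exact permutation p = 0.0529), and without the largest family this difference turned its direction, to 4.67 percentage points higher in DCHP libraries (adjusted exact permutation p = 0.238). As log2 fold change, the DCHP effect on the share of T-first reads was -0.28 by PANDORA-seq libraries and -0.18 by traditional libraries, and the difference between methods did not pass the exact permutation test (-0.11, p = 0.586). Without the largest family the effects were -0.33 and 0.21, and they differed by -0.54 (exact permutation p = 0.0152). The family stayed in the total of all reads here too. These tests did not use the pairs of DCHP libraries.

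The 40 other abundant families together had 44548 to 51353 RPM in the PANDORA-seq control libraries and 30342 to 43610 RPM in the DCHP libraries, and these summed levels did not overlap. Within them, the Lars2 family ranged from 15695 to 29287 RPM in control and from 14240 to 18682 RPM in DCHP libraries, so it overlapped. The largest family had means of 4796 ± 2655 RPM (SD, n = 4) in control and 5662 ± 2211 RPM (SD, n = 5) in DCHP libraries of PANDORA-seq, and its range in DCHP libraries overlapped that in control libraries. These levels are sums over members and were not tested. In bulk RNA, fewer cells of a type and less RNA per cell cannot be told apart.

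Few members were called between DCHP and control in tests of single sequences. Every sequence of the set of 158815 that had a read in the method entered the quasi-likelihood test of edgeR on the counts, with the miRNA total as library size. A call needed a more than 2-fold difference and a p under 0.1 after Benjamini-Hochberg adjustment over all sequences tested. For PANDORA-seq libraries, 13 of 21016 members tested were called, 0.0619%, beside 890 of all 145416 sequences tested (background 0.612%). Of these members, 7 were higher in DCHP (background 0.541%) and 6 lower (background 0.0708%). The shares of members and of all sequences are not of like sets. The minimum of reads was reached in traditional RNA-seq only by 80.8% of members, but by 47.3% of all sequences. Among the 20000 most abundant sequences, 0 of 1168 members and 2 of all sequences were called. With a minimum of 10 reads in 4 libraries of the method these were 0 of 4875 members and 3 of all 79210 sequences, and with a replicate block 0 members and 543 of all sequences. At an unadjusted p below 0.05 there were 786 members, 3.74% (background 6.73%). In traditional RNA-seq edgeR called none of 26106 members and none of 157107 sequences (background 0%), with 942 members, 3.61%, and 8281 of all sequences, 5.27%, at an unadjusted p below 0.05. DESeq2 called 8 members and 25 of all sequences there with miRNA size factors, and 59 members and 247 of all sequences with its own. In simulated counts of traditional libraries, edgeR recovered 8% of 8-fold and 0% of 3-fold changes, against 89% and 12% in those of PANDORA-seq libraries. Changes were simulated only in sequences above a minimum mean count, with a common dispersion of 0.64 for traditional and 0.27 for PANDORA-seq libraries. Only 4875 of the 21016 members reached 10 reads in 4 PANDORA-seq libraries, so recovery was not measured for many members. The median log2 fold change was 0.17 over members and 0.26 over all sequences tested in PANDORA-seq libraries, and 0.16 and 0.09 in traditional libraries. The signs depended on the scaling, other than that over all sequences in PANDORA-seq libraries. With TMM factors on total reads, the medians over members and over all sequences were -0.03 and 0.06 in PANDORA-seq libraries and -0.02 and -0.07 in traditional libraries, and with DESeq2's own size factors -0.05 and 0.05, and -0.04 and -0.08. The test of the interaction of method and exposure by edgeR called none of 26338 members (background 0%), with 1199 members, 4.55%, at an unadjusted p below 0.05 (background 6.13%).

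The members described next were not called under the stricter minimums of reads or with the replicate block. All 6 members that were lower in DCHP ended in AC, beside 5.53% of all members, and 5 of them belonged to the largest family. The 30-nt A form described above had 669, 30, 38 and 1343 reads in the PANDORA-seq control libraries and 33, 48, 50, 55 and 49 in the DCHP libraries (log2 fold change -3.13, edgeR adjusted p = 1.77e-06). A 29-nt form of the family had 317, 18, 11 and 777 reads in control and 15, 21, 21, 15 and 30 in DCHP libraries (log2 fold change -3.44, edgeR adjusted p = 2.18e-07). A 25-nt member of another family had 362, 21, 15 and 144 reads in control and 12, 7, 22, 14 and 6 in DCHP libraries (log2 fold change -3.56, edgeR adjusted p = 2.18e-07). In each of these, control libraries 1 and 4 were high, and control libraries 2 and 3 lay within or near the range of the DCHP libraries. Without the 5 control libraries in which the A form was raised, an alternative added after seeing the data, 1 member was called in PANDORA-seq libraries and 0 in traditional libraries (105 and 0 of all sequences), with 2 control libraries left in each method. These libraries were picked by the A form, itself a called member, and the other 2 members above were high in the same libraries. The loss of such calls was therefore set by the choice and is no test.

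Of the 7 members that were higher in DCHP, 4 were forms of the largest family. The one with the smallest p, a 25-nt form, had 158, 85, 32 and 217 reads in the PANDORA-seq control libraries and 281, 582, 119, 212 and 1176 in the DCHP libraries (log2 fold change 1.96, edgeR adjusted p = 0.0242). In raw reads, DCHP libraries 1, 2 and 5 were above every control library. Scaled to total reads, DCHP libraries 2, 4 and 5 were, and DCHP library 1 lay below control library 1. The groups overlapped either way. A 31-nt member outside the abundant families had 7, 5, 32 and 44 reads in the control and 27, 73, 8, 54 and 174 in the DCHP libraries (log2 fold change 1.95, edgeR adjusted p = 0.0566). With total reads in place of the miRNA total as library size, 1 member was called higher and 6 lower, beside 636 higher of 760 called over all sequences. With TMM factors, 0 members were called higher and 6 lower, beside 427 higher of 539.

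In traditional RNA-seq, the 3 members with the smallest p were not called. A 31-nt member had 0, 0, 0, 0 and 3 reads in the control and 53, 14, 21, 39 and 10 in the DCHP libraries (edgeR adjusted p = 0.939). A 30-nt form of the largest family that ended in AC had 137, 187, 18, 169 and 7 reads in the control libraries and 9, 3, 9, 9 and 8 in the DCHP libraries (edgeR adjusted p = 0.939). In this form the 3 control libraries in which the A form was raised were again the high ones. A 31-nt member on a transcript had 44, 6, 11, 14 and 0 reads in the control and 0, 0, 0, 1 and 0 in the DCHP libraries (edgeR adjusted p = 0.939).

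Most members were on no transcript used here. Of all members, 4321 (16.4%) matched a transcript in the sense direction, 3357 of these without mismatch, 674 (2.56%) only in antisense, and 21343 (81.0%) none. Intergenic and intronic sequence was not searched, since only transcripts were at hand. Sense matches were on 1276 genes, 692 of them with a single member, and 2977 members were on long noncoding or pseudogene transcripts, 2192 on genes with protein coding transcripts and 31 on mitochondrial mRNAs, with some members on several kinds. On nuclear protein coding genes, 1663 members lay in a 3′ UTR, 539 in coding sequence and 90 in a 5′ UTR. Of the members on these genes, 913 were on Lars2, whose most abundant member lay in the 3′ UTR. Members on no transcript had means of 30394 RPM in control and 26275 RPM in DCHP libraries of PANDORA-seq, and 140576 and 123871 RPM in traditional RNA-seq. Sense members had 23960 and 18370 RPM in PANDORA-seq against 3719 and 3152 RPM in traditional RNA-seq. Members that matched Lars2 alone or with other genes held 22629 and 17316 RPM of this in PANDORA-seq, and 1681 and 739 RPM in traditional RNA-seq. The higher level of sense members in PANDORA-seq thus rested on Lars2 matches. The 674 members with antisense matches alone had 1531 and 1865 RPM in PANDORA-seq against 108004 and 91084 RPM in traditional RNA-seq. In traditional RNA-seq, most of the level of unmatched and of antisense members came from the largest family. Without it, members on no transcript had 16039 and 18803 RPM in traditional RNA-seq, against 27078 and 22417 RPM in PANDORA-seq, and the 645 members with antisense matches alone had 432 and 494 RPM against 50.9 and 61.4 RPM.

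Several long noncoding transcripts carried many different members that were higher in traditional RNA-seq. The minimum of reads chose these members, so their levels by method are a description. Gm21269 had 233 members, 231 of them on no other gene and 229 without mismatch, at 128 to 263 RPM in traditional control and 204 to 317 RPM in traditional DCHP libraries. In PANDORA-seq its members had 2.91 to 4.33 RPM in control and 2.52 to 6.21 RPM in DCHP libraries. Of its members, 46.8% were 28 or 29 nt long and 19.3% had A at base 10. Gm49794 had 210 members, 161 of them on no other gene, with 160 to 359 RPM in traditional control and 254 to 526 RPM in traditional DCHP libraries against 4.01 to 5.61 and 4.15 to 8.93 RPM in PANDORA-seq. Gm5878 had 130 members, 111 of them on no other gene, with 135 to 357 RPM in traditional control and 240 to 360 RPM in traditional DCHP libraries against 1.45 to 1.98 and 1.58 to 3.70 RPM. Outside the abundant families, the mean in traditional RNA-seq was 203 RPM over 176 members of Gm49794 and 79.7 RPM over 96 members of Gm5878, against 315 and 292 RPM over all their members. For each of these genes the traditional libraries were all above the PANDORA-seq libraries, and the exposure groups overlapped in both methods.

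Outside the abundant families, 1700001L05Rik had 105 members, 4933440M02Rik 85 and 1700029M20Rik 75. They too were higher in every traditional than in any PANDORA-seq library, with 55.9 to 136, 26.9 to 82.8 and 34.6 to 99.7 RPM in the traditional libraries. The sequence on 4933440M02Rik shown above had a mean of 9.13 RPM in traditional RNA-seq and 0.125 RPM in PANDORA-seq, and that on Gm5878 162 and 0.389 RPM. Each such value rests on few reads per library in PANDORA-seq.

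Other noncoding transcripts went the opposite way. The minimum of reads chose these members too, so their levels by method are again a description. Their members were counted outside the abundant families. Neat1, which builds nuclear paraspeckles, had 150 members in 77 families, at 60.3 to 199.9 RPM in the PANDORA-seq and 0.902 to 5.67 RPM in the traditional libraries. Malat1, an abundant nuclear noncoding RNA, had 101 members at 43.4 to 122 RPM in PANDORA-seq and 0.941 to 11.6 RPM in traditional RNA-seq. Gm26917 had 119 members at 147 to 362 RPM in PANDORA-seq and 2.26 to 33.7 RPM in traditional RNA-seq. In Gm26917, 6.72% of members had A at base 10. Whether reads on Gm26917 come from rRNA was not tested.

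Among nuclear protein coding genes, Lars2 held the most member reads, with 913 members, 145 of them without mismatch and 294 on no other gene. Most of its members were thus on another gene as well, and their reads cannot be placed on Lars2 alone. Tmem38b, which encodes an intracellular cation channel, had 29 members, 1 of them without mismatch, at 58.5 to 164 RPM in PANDORA-seq and 55.4 to 142 RPM in traditional RNA-seq, so the methods overlapped. Akr1b7, an aldo-keto reductase, had 74 members, all without mismatch, at 96.0 to 201 RPM in PANDORA-seq and 1.61 to 16.6 RPM in traditional RNA-seq. The minimum of reads chose the members on coding genes too, so their levels by method are a description. D10Wsu102e had 75 and Atg2b, an autophagy gene, 45 members. Only 4 of the D10Wsu102e members and none of the Atg2b members were on no other gene, so their reads cannot be placed. None of the members of mt-Atp6, mt-Co2 and mt-Co3 was on that gene alone, so these reads cannot be placed either. The 3 members of mt-Atp6 had 3.15 to 11.7 RPM in PANDORA-seq and 0.0259 to 0.417 RPM in traditional RNA-seq. The 10 members of mt-Co2 had 1.81 to 21.2 RPM in PANDORA-seq and 0 to 0.382 RPM in traditional RNA-seq. The members of mt-Cytb, mt-Co3 and mt-Co1, 4, 4 and 5 in number, had 1.02 to 11.9 RPM in PANDORA-seq and 0 to 0.443 RPM in traditional RNA-seq.

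Among the genes with antisense matches, Gm18517, Gm49795, Gm10845 and Olfr1152 had 46, 43, 41 and 42 antisense members, none of them on that gene alone, with 64.2 to 204 RPM in the traditional and 0.472 to 2.68 RPM in the PANDORA-seq libraries. Sense and antisense unmatched sequences of any first base that overlapped on a transcript gave 390 pairs of 5′ ends at 11 of the 31 possible overlaps, with 7 pairs at the 10-nt overlap that ping-pong amplification leaves and 73 each at 19, 22, 24 and 25 nt. Pairs at several transcripts can come from the same repeated sequence.

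Genes of the piRNA pathway itself carried no members, 0 of 24 genes, and neither did spermatid chromatin genes, 0 of 10, among them the protamine genes Prm1 and Prm2. Over the whole annotation 1276 genes carried a sense member, and their share of all genes was not computed. These absences from short lists are therefore descriptions. Of 18 genes of the sperm tail and sperm metabolism, 3 carried members. Smcp, which encodes a mitochondrial capsule protein of sperm, had 19 members, with 0.944 to 3.31 RPM in PANDORA-seq and 4.36 to 12.4 RPM in traditional RNA-seq. Odf1, an outer dense fibre protein of the tail, had 4 members, with 1.69 to 3.56 RPM in PANDORA-seq and 0.0403 to 0.455 RPM in traditional RNA-seq. The third gene, Oaz3, had 1 member.

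Markers of other cell types were also found. Of 7 markers of the epididymal epithelium, Crisp1, a secreted protein that coats maturing sperm, had 56 members, with 58.0 to 127 RPM in PANDORA-seq and 0.787 to 5.08 RPM in traditional RNA-seq, and the other 6 had none. In traditional RNA-seq its mean was 3.87 ± 1.07 RPM (SD, n = 5) in control and 1.92 ± 0.842 RPM (SD, n = 5) in DCHP libraries, and the groups overlapped. This difference was not particular to Crisp1. In control and DCHP libraries, traditional means were 8.81 and 3.14 RPM for Akr1b7 and 5.07 and 1.63 RPM for Malat1. Gm21269 went the other way, with 212 and 254 RPM. Of 5 red blood cell genes, the haemoglobin genes Hbb-bs, Hbb-bt, Hba-a1 and Hba-a2 carried 13 members with means of 10.3 RPM in control and 10.6 RPM in DCHP libraries of PANDORA-seq. Their means were 0.373 and 0.243 RPM in traditional RNA-seq. Of the 6 leukocyte markers and the 4 markers of muscle and connective tissue, none carried a member, which for such short lists is a description too. The sperm and spermatid markers were present by 2 of 8 genes, Smcp and Odf1. The study filtered the sperm and lysed remaining somatic cells before RNA extraction. The levels of Crisp1 and of the haemoglobin genes moved with the method, and their part in the differences between methods was not tested. The minimum of reads chose these members as well, so these levels are a description.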

How the data were processed

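For each of the 19 libraries, the authors deposited counts of cleaned reads per distinct sequence and the sequence length as another column, without normalization or annotation. The study's methods name SPORTS for the analysis and annotation of raw reads. The adapter and quality settings, and whether SPORTS wrote these tables, are not given in the sources used here. The labels list the build mm10. Replicates were not pooled.

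Sequences of 15 to 45 nt were matched without gaps (numba 0.67.0) to 6109 small RNA transcripts of GENCODE release M21 (GRCm38) and, for members, to all its transcripts on both strands. The 18S rRNA transcript is annotated on the strand opposite to the rRNA and was matched on both strands. Nuclear tRNAs, 28S rRNA and the genome were not used here. The miRNA total held every read on 2198 hairpins, 4 with a tRNA locus left out, and ranged from 283683 to 8830574 reads, a counting error of 0.0337% to 0.188%. That error does not measure how much of the total is miRNA. RPM are reads per 1000000 total reads.

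Exact tests used scipy 1.17.1. Single sequences were tested within each method with edgeR 4.0.16 in R 4.3.3, with DESeq2 1.42.0 as an alternative, after a check on simulated counts, in which recovery was low for traditional RNA-seq and for 3-fold changes in PANDORA-seq. The members and lists were chosen with earlier results of these data known. Families, the removal of the largest family or of the most abundant PANDORA-seq member and the removal of 5 control libraries were chosen after seeing the data. Members named were among the 3 most abundant of each group, the 10 called with the smallest p, the 3 with the smallest p where none was called, and those at the limit of the selection. Genes named were among the 5 with the most member reads of each kind, genes of the gene lists, and those with the most members outside abundant families, the latter chosen after their values were seen. Printed sequences match a mouse transcript. The sequences of the largest family and their matches are not reported here.

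No library was a copy of another of its group, since in each of 36 pairs the counts differed by a chi-square of 35.2 or more times its degrees of freedom. Deviations of same-numbered DCHP libraries between methods correlated with r from 0.147 to 0.262 in 5 of 5 pairs, and each correlated best with its own number, so these were taken as paired. Control libraries between methods (r over 0.1 in 0 of 4 pairs) and exposures within a method (1 of 4 and 1 of 5) were not. In 2 of 4 pairs, a control library did correlate best with its own number. The study put sperm RNA of both control and DCHP sires through both methods, so control libraries may be paired too. The study calls its PANDORA-seq libraries biological replicates of mice. The labels do not say so, and for traditional RNA-seq no source used here does, so its p-values measure only the spread between libraries, which may be technical. Reads carry no molecular identifiers.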

Additional observations from a re-analysis of the deposited data

Results flagged for a closer look

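Among 72 checks of groups of 4 or 5 libraries, 4 values lay far from the others of their group, and chance alone gives about 1 in 20. The family of the 25-nt sequence that was the most abundant member in PANDORA-seq had 1733 RPM in traditional DCHP library 2, beside 57.0 to 259 RPM in the other 4 traditional DCHP libraries. The same library was high for the members on Gm26917, at 17.7 RPM beside 2.26 to 6.46 RPM. A family of 293 members on no transcript had 2406 RPM in PANDORA-seq control library 3, beside 3426 to 3613 RPM in the other 3 control libraries. The members on Gm49794 had 8.93 RPM in PANDORA-seq DCHP library 5, beside 4.15 to 5.24 RPM in the other 4. Causes were not tested.

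The DCHP effect on the share of T-first reads differed between the methods once the largest family was left out, by -0.54 on the log2 scale (exact permutation p = 0.0152). With the family the difference was -0.11 (exact permutation p = 0.586). Leaving out the family was chosen after seeing the data. It was left out of the T-first reads but not of the total of all reads.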

How the results depend on the processing

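The number of members was 13404 with a minimum of 20 reads and 13657 with 8 libraries. Without the largest family, differences between PANDORA-seq and traditional RNA-seq, control then DCHP libraries, were 3.03 and 1.13 percentage points for the T-first share of all reads, 2.75 and -7.41 for T as first base, 4.59 and 3.83 T-first reads per miRNA read, -4.90 and -9.07 for A at base 10, and 0.205 and 0.303 nt for length. For the share of all reads, the total still held the family. Without the 25-nt member as well, A at base 10 differed by -14.9 and -16.1 points. Without the largest family alone, DCHP minus control in traditional RNA-seq was 0.56 points of all reads, 0.0703 reads per miRNA read and 4.67 points for T as first base, and the DCHP effect differed between methods by -0.54 (log2). With a minimum of 2 reads the length difference in traditional RNA-seq was 0.00173 nt. With hairpins of mostly 20 to 24 nt reads as the miRNA total, T-first reads per miRNA read differed between methods by 153.7 and 118.3 (adjusted exact permutation p = 0.0317).

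With the replicate block, differences between methods, control then DCHP, were -19.96 and -18.0 points for the share of all reads, -17.1 and -17.2 for T as first base, 15.4 and 10.9 for A at base 10, and -0.677 and -0.564 nt for length. Their exact p was 0.125 with 4 pairs and 0.0625 with 5, the smallest possible.

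Members called in PANDORA-seq, beside all sequences called, were 7 of 760 with total reads, 6 of 539 with TMM, 0 of 2 among the 20000 most abundant sequences, 0 of 3 with 10 reads in 4 libraries of the method, 0 of 543 with the replicate block, 3 of 261 and 5 of 164 with DESeq2 (miRNA or its own size factors), and 1 of 105 without the raised control libraries. In traditional RNA-seq they were 1 of 5 with the replicate block, and 8 of 25 and 59 of 247 with DESeq2.

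Leaving out each library in turn, the control libraries differed between methods by -21.0 to -18.1 for the share of all reads (points), 0.485 to 1.95 for reads per miRNA read, -18.0 to -14.8 for T as first base (points), 13.04 to 17.0 for A at base 10 (points), -0.749 to -0.541 for length (nt). The DCHP libraries differed by -19.1 to -17.2 for the share of all reads (points), 0.825 to 1.67 for reads per miRNA read, -18.5 to -15.8 for T as first base (points), 9.31 to 11.8 for A at base 10 (points), -0.616 to -0.481 for length (nt). DCHP minus control in PANDORA-seq was -1.51 to -1.04 for the share of all reads (points), -0.814 to -0.454 for reads per miRNA read, -6.68 to -3.36 for T as first base (points), -4.95 to -0.858 for A at base 10 (points), -0.0288 to 0.179 for length (nt). DCHP minus control in traditional RNA-seq was -4.21 to -1.36 for the share of all reads (points), -1.36 to 0.108 for reads per miRNA read, -5.26 to -3.32 for T as first base (points), 0.746 to 1.66 for A at base 10 (points), -0.0261 to 0.0258 for length (nt). The difference in the DCHP effect was -0.20 to -0.05 (log2). Members called were 3 to 22 in PANDORA-seq (3 without control library 4, beside 629 of all sequences, and 22 without DCHP library 3, beside 1368) and 0 to 1 in traditional RNA-seq. No control difference between methods kept an adjusted p below 0.05 without any 1 control library, since the smallest possible p then rises.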
